A study of Anopheles gambiae with 104 samples.

Results

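Among the 16884 Anopheles probe sets on the array, 61 were bright in both tissues under both light regimes and changed little over a 24-h cycle. A probe set is a group of short oligonucleotide probes whose signals are summarised into 1 value per array, given here on the log2 scale, so that a step of 1 is a doubling. The members were chosen by their measured level and 24-h amplitude: the mean over the 26 arrays of an arm was at least 13 in each of the 4 arms, and the fitted 24-h amplitude (the distance from the mean to the peak of a fitted cosine wave) was under 0.2 in each arm. The study followed transcripts of the malaria mosquito Anopheles gambiae (Pimperena strain, S form) through the day. All females were mated, had not taken blood and were 7 to 9 days old at the start. The 4 arms were heads in constant dark (DD), heads in a light:dark cycle (LD), bodies in DD and bodies in LD. LD had 11 h of full light with transitions of 1 h at dawn and at dusk. Heads carried mouthparts and antennae, bodies kept their appendages, and each pool held 20 to 30 mosquitoes. Each arm was sampled every 4 h for 48 h, which gave 13 time points of 2 arrays each, from circadian time (CT) 0 to 48 in DD and from zeitgeber time (ZT) 12, when lights went off, to ZT60 in LD.

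As background, the transcripts that fill most of a cell's messenger RNA pool are usually those of its basic machinery, such as proteins of the ribosome, translation factors, energy metabolism and the cytoskeleton. Transcripts of this kind are often chosen as references for scaling other measurements, a use that calls for a level that stays put over time, between tissues and between treatments. A circadian study sets LD, where light can drive a daily change directly, against DD, where only the internal clock remains. The deposited table and the reference table used here do not pair probe sets with genes, so members are given by ID, and no role or sequence is assigned to any of them. For the same reason the labelled tissues could not be checked against marker genes.

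The members' names set them apart from the array as a whole. Names are built from a chromosome arm followed by a number for the cluster, and 30 of the 61 (49.2%) were named for arm 2R, which holds 26.3% of all Anopheles probe sets. Of these 30, 16 came from just 2 clusters, 2R.6 and 2R.19, and of the other 45 members 14 (31.1%) were named for 2R. Arms 3L and 3R had 10 each, 2L had 9, 2 carried no chromosome (UNKN), and none was named for X, which holds 8.31% of the probe sets. Names ending in _s_at or _a_at, which in Affymetrix naming mark probes shared by several transcripts, made up 78.7% of the members (71.1% without the 16) and 27.8% of all. The ending _UTR_s_at was carried by the 16 alone among the members, out of 74 such probe sets on the array. Low cluster numbers were frequent too. The median was 155 in members and 1231.5 over all, and 85.2% of members had a number under 350 (80.0% without the 16), against 14.8% of all. With shared probes, a member's signal can come from more than 1 gene or transcript, and which of them it follows was not tested.

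The 61 fell into 43 clusters, of which 5 held more than 1 member. Clusters 2R.6 and 2R.19 held 8 members each, out of 12 and 9 probe sets. Their 16 members are set apart from the other 45 below, a split made after IDs and values had been seen. Probe sets that share a cluster with a member but failed the rule numbered 13, in 8 clusters, and 6 of these had an arm mean of 12 or more in every arm. Ag.2R.6.1_UTR_s_at and Ag.2R.6.4_UTR_s_at missed only the level limit in heads in DD, at 12.97 and 12.90. Their partner Ag.2R.6.0_CDS_s_at behaved otherwise, with arm means of 9.93 in heads in DD, 10.87 in heads in LD, 11.06 in bodies in DD and 11.59 in bodies in LD and an amplitude of 0.41 in heads in DD.

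Both limits of the rule had probe sets close to them. Ag.UNKN.1841.0_CDS_s_at lay just inside the level limit with 13.003 in heads in LD, and Ag.3L.519.1_a_at just outside with 12.996 in heads in DD. Ag.2R.6.8_UTR_s_at lay just inside the amplitude limit with 0.193 in bodies in LD, and Ag.3L.2136.0_at was the nearest outside with 0.220 in the same arm. Ag.3L.2136.0_at was also the only probe set that was bright in all 4 arms and failed on amplitude, since 62 had an arm mean of at least 13 throughout. Bright probe sets were mostly under the amplitude limit in each arm taken alone. In heads 94 of 97 in DD and 93 of 99 in LD were, and in bodies 182 of 199 in DD and 175 of 200 in LD.

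In each arm over 99.0% of all Anopheles probe sets lay below the lowest member. The members' arm means ran from 13.04 to 14.84 (median 13.26) in heads in DD and from 13.003 to 14.78 (median 13.36) in heads in LD. In bodies they ran from 13.36 to 15.18 (median 13.81) in DD and from 13.25 to 15.28 (median 14.21) in LD. No Anopheles probe set was brighter than the brightest member in either body arm, while heads reached 15.44 in DD and 15.41 in LD outside the set. The 16 members of 2R.6 and 2R.19 ran from 13.05 to 13.22 in heads in DD, 13.23 to 13.41 in heads in LD, 13.55 to 13.88 in bodies in DD and 13.25 to 13.49 in bodies in LD. Of the other 45, 35, 22, 27 and 44 lay above all of the 16 in these arms, and 1, 15, 4 and 0 lay below all of them.

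The highest member on average was Ag.2R.4959.0_at. Its lowest, median and highest time point means were 14.71, 14.83 and 14.97 in DD and 14.67, 14.78 and 14.85 in LD for heads. For bodies they were 15.06, 15.19 and 15.31 in DD and 14.53, 14.63 and 14.75 in LD. Bodies in DD stood above its other 3 arms at every time point. Ag.2L.2855.0_s_at, the next in order, gave 14.33, 14.41 and 14.57 in DD and 14.52, 14.59 and 14.65 in LD for heads. For bodies it gave 14.87, 15.02 and 15.11 in DD and 15.23, 15.27 and 15.34 in LD. Its body values lay above its head values throughout, and the regimes did not overlap in bodies. The 2 lowest members were Ag.2R.19.6_UTR_s_at and Ag.2R.6.3_UTR_s_at. Time point means of Ag.2R.19.6_UTR_s_at ran from 12.76 to 13.47 in heads in DD, 12.93 to 13.53 in heads in LD, 13.20 to 13.81 in bodies in DD and 12.84 to 13.52 in bodies in LD, so all arms overlapped. Ag.2R.6.3_UTR_s_at ran from 12.87 to 13.42, 12.86 to 13.49, 13.26 to 13.80 and 12.85 to 13.55 in the same arms.

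**Figure D1:**
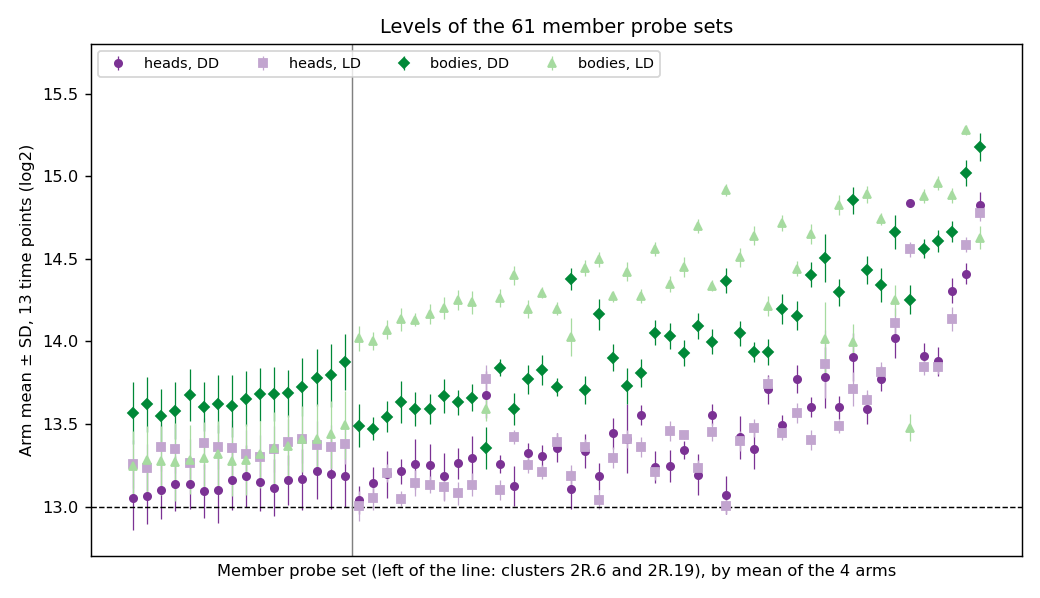
Arm means (log2) of the 61 members, as points with the SD over 13 time points, for heads in DD, heads in LD, bodies in DD and bodies in LD. The 16 members of clusters 2R.6 and 2R.19 stand left of the vertical line near the limit of 13 (dashed) with long error bars, and most of the other 45 are brighter in bodies than in heads.

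Most members were flat over the 48 h. Among the other 45, the median distance between the lowest and the highest time point mean was 0.30 in heads in DD, 0.18 in heads in LD, 0.29 in bodies in DD and 0.18 in bodies in LD. As folds these are 1.23, 1.13, 1.22 and 1.14, against 1.72, 1.52, 1.60 and 1.73 over all probe sets tested in those arms. The rule fixed a small 24-h amplitude, so these values describe the set and test nothing. Ag.2R.265.0_UTR_a_at (named after its values were seen) had the smallest range of the 45 in heads in LD, between 13.40 and 13.47. The SD between the 2 arrays of a time point, which the rule did not use, had medians of 0.086, 0.064, 0.075 and 0.065 in the 45, against 0.163, 0.147, 0.159 and 0.154 over all tested. Probe sets between 12 and 13 in every arm, the nearest in brightness, numbered 5 and gave 0.092, 0.056, 0.105 and 0.099.

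Steadiness over the 48 h did not describe the 16 members of 2R.6 and 2R.19 as it did the other 45. Their ranges over time had medians of 0.57, 0.54, 0.55 and 0.67 in heads in DD, heads in LD, bodies in DD and bodies in LD, which are folds of 1.49, 1.45, 1.46 and 1.60. They went up and down together. All 16 lay on the same side of their own arm mean at 9 of 13 time points in heads in DD, 6 in heads in LD, 7 in bodies in DD and 10 in bodies in LD. For the other 45 this happened at no time point, but agreement of all 45 is a stricter demand, and most of them shared a side at some times. At CT0 in bodies in DD 43 of the 45 lay below their own mean. At CT12 in heads in DD 41 lay above, and at ZT40 in heads in LD 40 did. In bodies in LD the 16 were lowest at ZT16, with levels of 12.83 to 13.13, and 14 of them were highest at ZT32, where all 16 lay between 13.51 and 13.75. In heads in LD all 16 were lowest at ZT60 (12.86 to 13.12), and in bodies in DD all 16 were lowest at CT44 (13.20 to 13.54). The fitted 24-h amplitudes, which the rule limited, were 0.114 to 0.159 in heads in LD, 0.138 to 0.193 in bodies in LD, 0.062 to 0.139 in heads in DD and 0.010 to 0.061 in bodies in DD. The names of these 16 mark shared probes and the 16 moved together, so they are not taken as 16 separate observations. Whether they share probes or targets with each other was not tested.

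**Figure D2:**
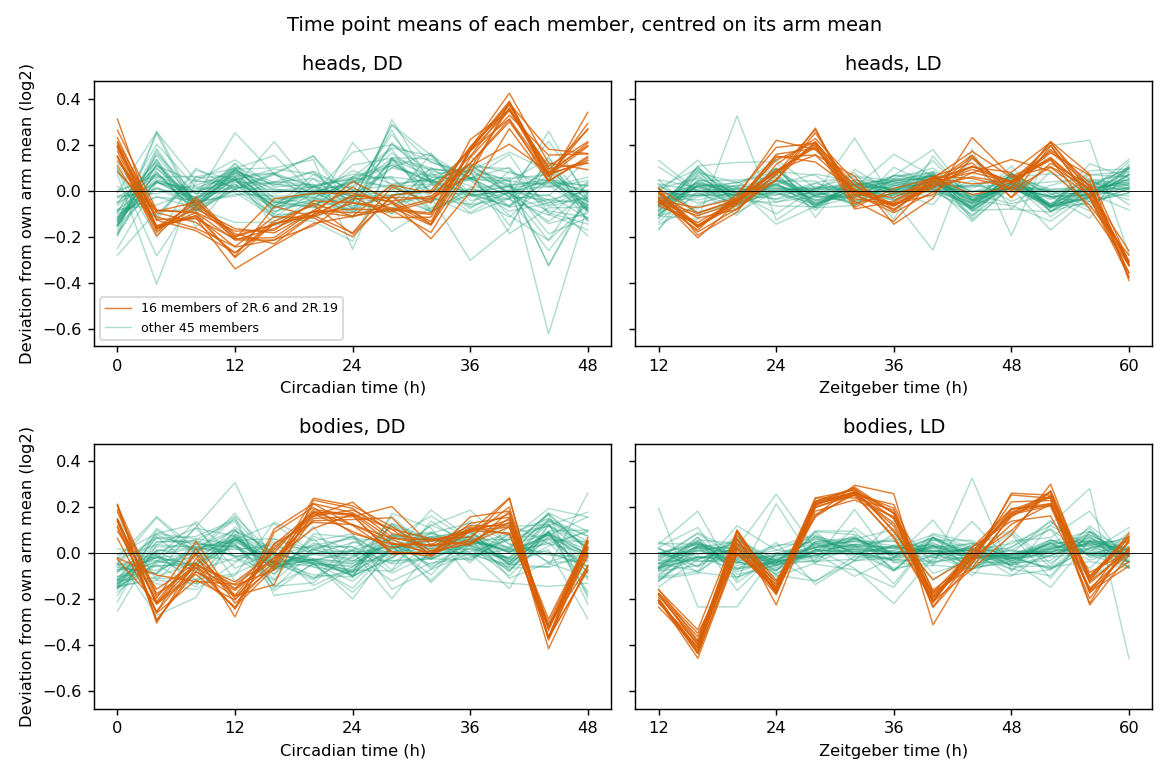
Deviation of each member's time point mean from its own arm mean (log2) against circadian or zeitgeber time (h), 1 line per member and 1 panel per arm. The 16 members of 2R.6 and 2R.19 move as a bundle with a mean swing of 0.57 in heads in DD, 0.53 in heads in LD, 0.52 in bodies in DD and 0.67 in bodies in LD. The mean swing of the other 45 is 0.17, 0.09, 0.17 and 0.08 in the same arms.

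The 2 arrays of a time point often disagreed on where these 16 stood. The median deviation of the 16 from their arm means had the same sign on both arrays at 7 of 13 time points in heads in DD, 6 in heads in LD, 7 in bodies in DD and 10 in bodies in LD. For the other 45 the counts were 9, 4, 9 and 3, so the sign alone does not set the 16 apart. The size does: the 2 arrays lay a median of 0.14, 0.13, 0.27 and 0.22 apart for the 16, and 0.02, 0.07, 0.02 and 0.05 for the other 45. At CT24 in heads in DD the median deviation of the 16 was 0.39 on replicate 1 and -0.52 on replicate 2. At ZT60 in heads in LD it was 0.07 on replicate 1 and -0.73 on replicate 2, so the low at that time point came from a single array. At ZT16 in bodies in LD both arrays were low, at -0.28 and -0.53. The SD between the 2 arrays had medians of 0.186, 0.130, 0.247 and 0.195 in heads in DD, heads in LD, bodies in DD and bodies in LD, above those of the other 45 in each arm. The labels do not say whether the 2 arrays came from separate pools, so this spread may be technical, and p-values below measure only the spread of the time points around the fit. Using replicate 1 arrays alone, 53 probe sets met the rule, 11 of them from the 16. Using replicate 2 arrays alone, 46 did, 1 of them from the 16.

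**Figure D3:**
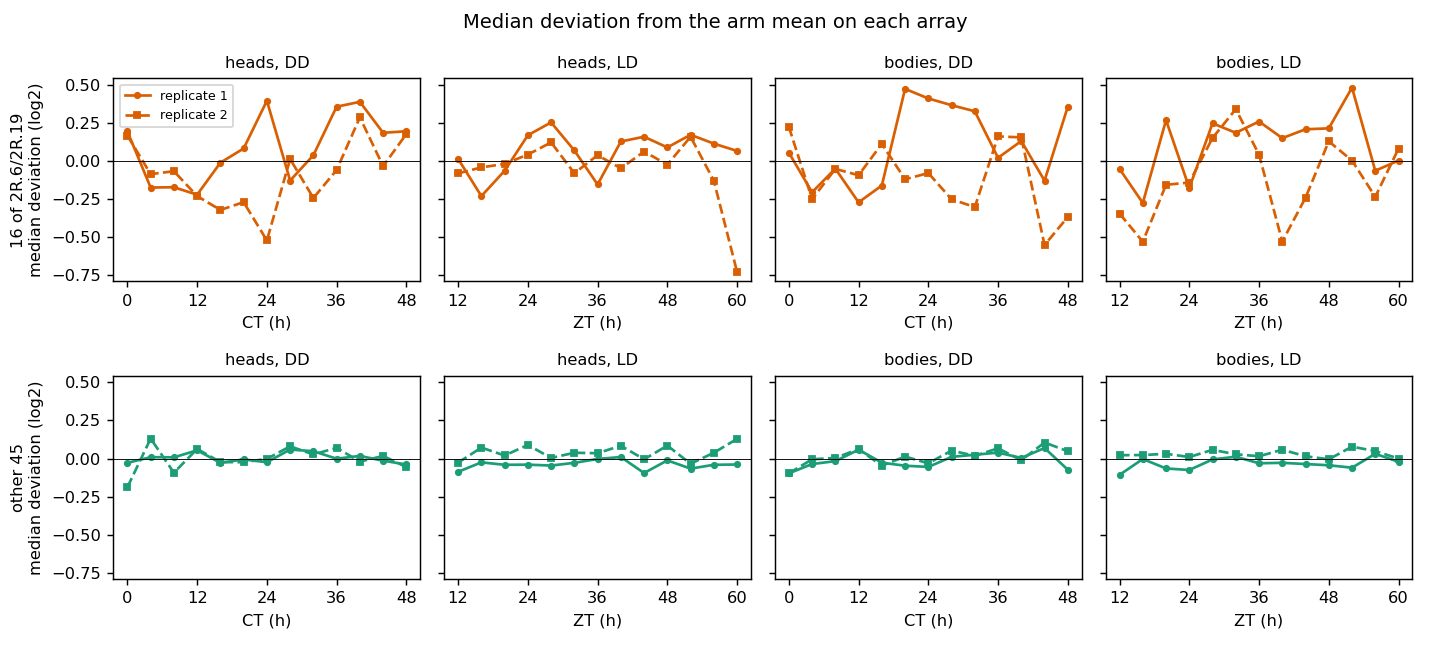
Median deviation (log2) from the arm mean on each array, for the 16 members of 2R.6 and 2R.19 (top) and the other 45 (bottom), against time (h), with replicate 1 as solid and replicate 2 as dashed lines. The replicates of the 16 lie up to 0.92 apart in heads in DD, and those of the other 45 at most 0.17 apart in any arm.

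Several of the other 45 had wide ranges over time, and 2 come first here (all in this paragraph were named after their values were seen). Ag.3R.155.0_CDS_s_at had the largest range of any member in heads in DD. It was lowest at CT44, with 12.79 on both arrays, and highest at CT4 with a mean of 13.61. CT44 in heads in DD was also the time point at which the 3′ minus 5′ difference of the Gapdh control, a measure of RNA quality, reached its highest value of 7.54 (arm mean 4.40 ± 0.97, SD, n = 13). The part of RNA quality in this value was not tested. Ag.2L.226.0_CDS_at had ranges of 0.57 in heads in DD, 0.60 in heads in LD, 0.45 in bodies in DD and 0.78 in bodies in LD.

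The rule looked only at a 24-h wave, so a change between the days or at 12 h was free to appear. The second day differed from the first for none of the 61 in any arm (limma). Over all probe sets tested 0%, 0.0278%, 0.0273% and 0% were called in heads in DD, heads in LD, bodies in DD and bodies in LD, so that few calls were made anywhere. At an unadjusted p under 0.05 there was again no member, against 17.1%, 12.4%, 7.06% and 6.81% of all tested. That unadjusted count depends on the setting in heads in DD: it was 26 with each array shifted to a common median and 11 on replicate 1 arrays alone, while no member passed after adjustment in either. The shares of all probe sets in those settings are not given here, so nothing about the members is read from these counts. Second minus first day differences of members ran from -0.15 to 0.22 in heads in DD, -0.06 to 0.10 in heads in LD, -0.09 to 0.13 in bodies in DD and -0.06 to 0.11 in bodies in LD. The widest 95% intervals reached -0.36 and 0.49, both in heads in DD, so larger changes than these in any member would have been outside the intervals.

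No member passed the test of a 12-h wave either (limma). Of all probe sets tested 0%, 3.07%, 0% and 0.0956% did in heads in DD, heads in LD, bodies in DD and bodies in LD. At an unadjusted p under 0.05 there was 1 member, Ag.2L.226.0_CDS_at in heads in LD, against 4.92%, 16.6%, 6.43% and 9.82% of all tested in the same arms. Its 12-h amplitude was 0.23 (adjusted p = 0.0527, limma), and its 3 highest time points were ZT20 (14.23 and 14.15 on the 2 arrays), ZT32 (14.11 and 14.08) and ZT56 (14.09 and 14.07). Its 2 lowest were ZT40 (13.62 and 13.59) and ZT60 (13.59 and 13.59). With the arrays entered one by one it passed, with an adjusted p of 0.000162 with a replicate block and 0.00022 without it (limma). These 2 fits count the 2 arrays of a time point as separate units, which the labels do not state. If the arrays are technical copies, these p-values are too small.

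For the 24-h wave itself, which the rule limited, 5 members were called in heads in LD and none in the other arms. All 5 belonged to 2R.6 and 2R.19. Over all tested 37.0% were called in heads in LD, 8.92% in heads in DD, 6.69% in bodies in DD and 16.0% in bodies in LD, and nothing is read from the members' counts here.

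Constant dark and the light:dark cycle were compared within each tissue over time point means, with the 24-h wave in the model. The rule asked for 13 or more in each arm but did not use differences between arms. It still limits how large a member's difference can be, since no Anopheles arm mean exceeded 15.44. The other probe sets tested had no such floor, so sizes of differences are not on equal terms. In bulk tissue fewer cells of a type and less RNA per cell cannot be told apart. RNA controls moved with the regime. The Gapdh 3′ minus 5′ difference averaged 4.40 ± 0.97 in DD and 2.59 ± 0.20 in LD for heads, and 4.34 ± 0.58 in DD and 3.04 ± 0.46 in LD for bodies (SD, n = 13 time points). The bacterial dap control, which is added to the RNA, gave 2.73 ± 0.23 in DD and 1.51 ± 0.20 in LD for heads, and 2.19 ± 0.325 in DD and 0.87 ± 0.27 in LD for bodies. Its lowest DD value lay above its highest LD value in both tissues, so light regime and sample processing cannot be told apart in any DD against LD difference.

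In heads the members differed little between DD and LD. After adjustment 39 of the 61 (63.9%) differed (limma), 19 higher and 20 lower in DD, against 73.0% of all probe sets tested, 43.5% higher and 29.5% lower. Differences ran from -0.31 to 0.28 with a median of -0.03, against 0.08 over all tested, and none reached 1.5-fold. The 16 members of 2R.6 and 2R.19 gave 15 of the 20 lower calls and no higher one, with a median of -0.21. The other 45 gave 19 higher and 5 lower calls, with a median of 0.05. The lean of these 45 to higher calls depends on the setting, with 13 higher and 12 lower (median 0.01) after quantile normalization of all arrays and 11 higher and 8 lower on replicate 2 arrays alone. Of all tested 43.1% were higher and 30.0% lower after quantile normalization, and 36.8% and 30.6% on replicate 2 arrays alone. Members that did not pass numbered 22, with differences of -0.14 to 0.07 and 95% intervals within -0.28 and 0.16.

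Ag.2R.11.0_UTR_at was the member with the highest difference in heads. Its lowest, median and highest time point means were 14.81, 14.84 and 14.90 in DD, against 14.46, 14.56 and 14.63 in LD (difference 0.28, SE 0.027, adjusted p = 2.5e-09, limma). The regimes did not overlap, and it was the only such member in heads, where 18.8% of all tested did not overlap. Ag.2R.317.0_CDS_a_at gave 13.62, 13.79 and 13.92 in DD, against 13.48, 13.59 and 13.64 in LD (difference 0.21, adjusted p = 3.76e-05, limma). The regimes overlapped by a narrow margin, and after quantile normalization the difference was 0.075 and no longer passed. On the lower side, Ag.2R.19.9_UTR_s_at gave 12.89, 13.09 and 13.41 in DD, against 13.06, 13.38 and 13.62 in LD (difference -0.31, adjusted p = 1.45e-05, limma). Ag.2R.4.0_CDS_s_at gave 12.91, 13.14 and 13.38 in DD, against 13.32, 13.43 and 13.495 in LD (difference -0.29, adjusted p = 3.86e-07, limma). Both overlapped between the regimes, Ag.2R.4.0_CDS_s_at only at its highest DD values.

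In bodies the regimes differed for every member. All 61 passed (limma), 22 higher and 39 lower in DD, against 85.7% of all probe sets tested, 47.4% higher and 38.3% lower. Differences ran from -0.80 to 0.85 with a median of -0.33, against 0.10 over all tested, and 8 members differed at least 1.5-fold. The share of all probe sets tested that differed at least 1.5-fold was not computed, here or in heads. The 2 groups of members lay on opposite sides. All 16 members of 2R.6 and 2R.19 were higher in DD, with a median of 0.32. Of the other 45, 39 were lower and 6 higher, with a median of -0.46. DD and LD did not overlap for 42 of the other 45, 5 above and 37 below, and overlapped for all 16. Over all tested 42.8% did not overlap. The splits of 22 higher and 39 lower were the same in number after shifting each array to a common median and after quantile normalization. Of all tested 42.1% were higher and 43.2% lower after the shift, and 42.6% and 43.1% after quantile normalization. Outside the set, probe sets of these clusters went both ways in bodies. Ag.2R.6.0_CDS_s_at had arm means of 11.06 in DD and 11.59 in LD, and Ag.2R.6.0_CDS_x_at 11.79 and 12.29. Ag.2R.6.1_UTR_s_at, Ag.2R.6.4_UTR_s_at and Ag.2R.19.3_UTR_x_at were higher in DD, as the 16 were.

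Ag.2R.3698.0_s_at and Ag.2R.11.0_UTR_at stood highest. Ag.2R.3698.0_s_at gave 14.71, 14.85 and 14.98 in bodies in DD (lowest, median and highest time point mean), against 13.78, 14.01 and 14.25 in LD (difference 0.85, SE 0.040, 1.81-fold, adjusted p = 8.87e-16, limma). Ag.2R.11.0_UTR_at gave 14.09, 14.23 and 14.41 in DD, against 13.36, 13.48 and 13.62 in LD (difference 0.77, adjusted p = 3.05e-15, limma). For both the lowest DD value lay above the highest LD value. Ag.2R.4.0_CDS_s_at had the most negative difference, with 13.44, 13.60 and 13.77 in DD, against 14.31, 14.41 and 14.48 in LD (difference -0.80, SE 0.040, adjusted p = 3.14e-15, limma). Ag.2R.449.0_CDS_a_at gave 13.52, 13.73 and 13.85 in DD, against 14.37, 14.43 and 14.53 in LD (difference -0.73, adjusted p = 4.11e-15, limma). Again the regimes were fully apart, with DD below LD at all time points. In heads Ag.2R.449.0_CDS_a_at differed by only -0.03 (95% interval -0.11 to 0.06).

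The DD minus LD difference was not the same in heads and bodies. In a test of the difference itself (DD minus LD in heads minus DD minus LD in bodies, added after both comparisons had been seen) 59 of the 61 passed (limma), 37 positive and 22 negative, against 77.4% of all probe sets tested, 36.5% positive and 40.9% negative. All 16 members of 2R.6 and 2R.19 were negative, with a median of -0.53, and had negative differences in heads and positive ones in bodies. Of the other 45, 37 were positive and 6 negative, with a median of 0.50. The 2 that did not pass were Ag.2L.2855.0_s_at, at 0.08 (95% interval -0.01 to 0.17), and Ag.3L.117.2_a_at, at 0.10 (95% interval -0.01 to 0.21). Ag.2R.449.0_CDS_a_at was among the positive ones with 0.71 (SE 0.047, adjusted p = 1.1e-12, limma), and Ag.2R.3698.0_s_at among the negative ones with -0.65 (SE 0.050, adjusted p = 1.71e-11, limma).

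**Figure D4:**
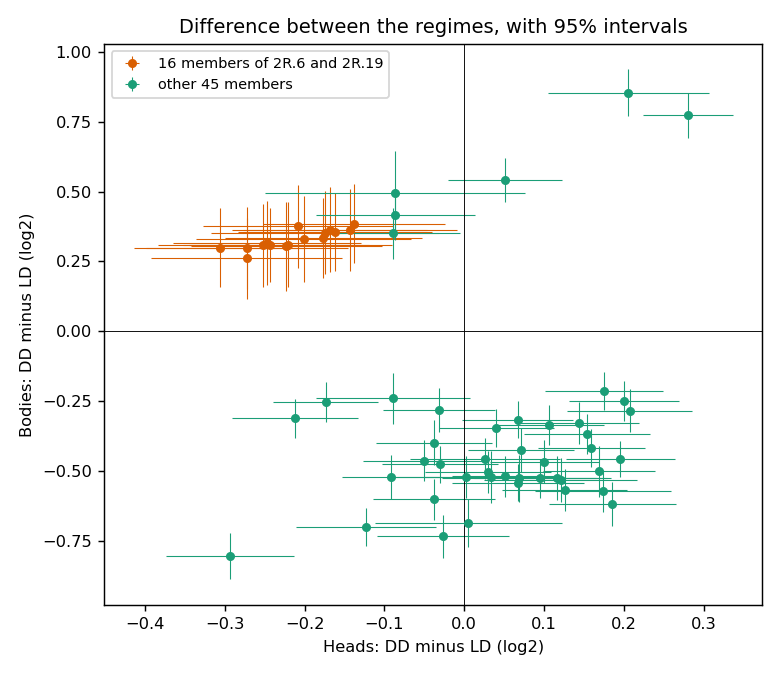
DD minus LD difference (log2) of each member in heads (horizontal) and in bodies (vertical), with 95% intervals from the limma fits. The 16 members of 2R.6 and 2R.19 sit together at the upper left, negative in heads and positive in bodies, while 39 of the other 45 lie below 0 in bodies.

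Heads and bodies were compared at matched time points. The direction of this comparison rests on how arrays are scaled: the median of all probe sets tested, heads minus bodies, was -0.52 in DD and -0.52 in LD in the deposited values, and with the array median shift it was 0.08 and -0.03. In DD all 61 members passed as deposited (limma), 2 higher and 59 lower in heads, against 92.5% of all tested (32.0% higher and 60.5% lower), with a member median of -0.52. With the array median shift 35 passed, 23 higher and 12 lower, against 91.0% of all tested (47.7% higher and 43.2% lower). With quantile normalization 50 passed, 36 higher and 14 lower, against 91.2% of all tested (46.6% higher and 44.6% lower). The member median in DD was 0.08 with the array median shift, as over all tested, and 0.17 with quantile normalization, against 0.03 over all tested. As deposited, 38 members did not overlap between the tissues in DD, 1 above and 37 below in heads, against 65.7% of all tested.

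In LD the 2 groups of members parted under each of the 3 scalings. As deposited 45 members passed (limma), 3 higher and 42 lower in heads, against 93.0% of all tested (33.7% higher and 59.2% lower). All 45 were those outside 2R.6 and 2R.19, with a median of -1.01, and the 16 had a median of 0.01 and 95% intervals within -0.24 and 0.23. With the array median shift all 16 were higher in heads, with a median of 0.50, and of the others 6 were higher and 38 lower, with a median of -0.52. Of all tested 45.5% were higher and 47.1% lower in that setting. With quantile normalization the 16 were again all higher (median 0.81), and of the others 7 were higher and 31 lower (median -0.18). The shares of all tested were then 45.3% higher and 47.4% lower. As deposited 40 members did not overlap between the tissues in LD, 1 above and 39 below in heads, against 67.5% of all tested. Outside the set, Ag.2R.6.0_CDS_s_at and Ag.2R.6.0_CDS_x_at were lower in heads in LD, at 10.87 and 11.61 against 11.59 and 12.29 in bodies. Ag.2R.6.1_UTR_s_at, Ag.2R.6.4_UTR_s_at and Ag.2R.19.3_UTR_x_at lay close to even, at 13.15, 13.11 and 11.43 against 13.16, 13.15 and 11.345 in bodies.

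Ag.2R.11.0_UTR_at was the member most in favour of heads. In LD its lowest, median and highest time point means were 14.46, 14.56 and 14.63 in heads, against 13.36, 13.48 and 13.62 in bodies (difference 1.08, SE 0.032, adjusted p = 2.2e-13, limma). In DD it gave 14.81, 14.84 and 14.90 in heads, against 14.09, 14.23 and 14.41 in bodies (difference 0.59, adjusted p = 5.73e-10, limma). The tissues were fully apart in both regimes. Another probe set of its cluster outside the set, Ag.2R.11.0_CDS_at, did not share this lead. Its arm means were 13.23 in heads and 13.52 in bodies in DD, and 12.65 and 12.71 in LD. Ag.3L.130.2_UTR_a_at was higher in heads by 0.33 in DD (adjusted p = 1.03e-05, limma) and by 0.18 in LD (adjusted p = 0.000158, limma), with overlapping values, and Ag.2R.4959.0_at was the only other member higher in heads in LD, by 0.145 (adjusted p = 0.000452, limma).

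At the other end stood Ag.UNKN.1841.0_CDS_s_at. In LD it gave 12.93, 13.01 and 13.07 in heads, against 14.85, 14.92 and 14.96 in bodies (difference -1.91, SE 0.028, 3.76-fold, adjusted p = 1.28e-16, limma), and in DD 12.87, 13.06 and 13.28 in heads, against 14.20, 14.39 and 14.46 in bodies (difference -1.30, adjusted p = 1.25e-13, limma). Ag.2R.1.0_CDS_a_at in LD gave 13.16, 13.24 and 13.31 in heads, against 14.63, 14.68 and 14.77 in bodies (difference -1.46, adjusted p = 3.17e-15, limma). Ag.3L.144.0_CDS_at in DD gave 12.97, 13.07 and 13.36 in heads, against 14.30, 14.38 and 14.53 in bodies (difference -1.28, adjusted p = 3.5e-13, limma). None of these 3 overlapped between the tissues. The directions of the members named for this comparison were kept under both other scalings.

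**Figure D5:**
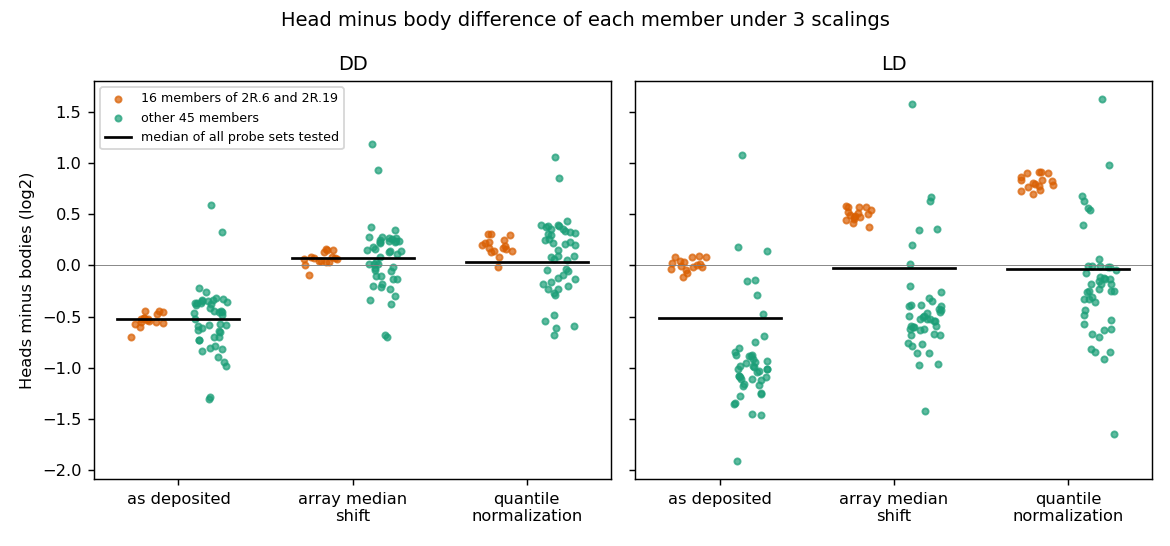
Head minus body difference (log2) of each member in DD (left) and LD (right) as deposited, after the array median shift and after quantile normalization, with the median of all probe sets tested as a black line. In LD the 16 members of 2R.6 and 2R.19 lie above the line in all 3 scalings, and in DD they lie around it as deposited and after the array median shift and mostly above it after quantile normalization.

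The same rule was applied to probe sets not named for Anopheles. None of the 4502 named for the parasite Plasmodium falciparum met it, and 5 of the 1375 others did, which include array controls and names that do not give an organism. Of these, 4 were named for cre, a transcript of bacteriophage P1 that is added to the hybridization mix as a control and does not come from the mosquito. Arm means of the 4 cre probe sets ran from 13.41 to 14.47 in heads in DD and from 13.57 to 14.57 in bodies in LD, inside the members' range. As deposited cre was 0.02 to 0.35 higher in DD than in LD in heads and 0.14 to 0.31 higher in bodies. Heads lay below bodies in cre by 0.30 to 0.43 in DD (differences of -0.43 to -0.30) and by 0.12 to 0.47 in LD (differences of -0.47 to -0.12). After the array median shift the cre differences between heads and bodies were positive, 0.18 to 0.30 in DD and 0.02 to 0.37 in LD. Between DD and LD in bodies, 39 of the other 45 members ran opposite to cre, and the 16 of 2R.6 and 2R.19 ran the same way. In heads all 16 ran opposite to cre, with differences of -0.31 to -0.14, and the other 45 ran both ways.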

How the data were processed

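Values are the log2 signals per probe set and array that the authors made with GCRMA (background correction, normalization and summary of probes), per the submitters' processing notes. No version of GCRMA is given in the sources used here, nor which arrays it was run on together. The table holds 22761 probe sets on 104 arrays with values from 0.69 to 15.63. Precision is limited by the number of arrays. The members, the lists and the rule were chosen with earlier results of these data known.

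Amplitudes come from least-squares fits of a cosine and sine of 24 h to 13 time point means. Tests used limma 3.58.1 in R 4.3.3 (lmFit, eBayes) on time point means of all Anopheles probe sets whose tissue mean exceeded the 95th percentile of those named for P. falciparum (3.75 in heads, 3.78 in bodies). Heads kept 7188 probe sets, bodies 7325, and 8438 passed in at least 1 tissue. All 61 members passed this filter, since the rule asks for high levels. P-values were adjusted by Benjamini-Hochberg over all of them, with a threshold of 0.05. DD and LD were compared in 1 fit of 26 time point means with separate 24-h terms, and heads and bodies as differences at 13 matched time points. The second day and a 12-h wave were tested per arm. The fits were tested on simulated data. Tables were handled with Python 3.11.15.

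Named were the 2 highest and 2 lowest members on average, up to 2 called members at either end of each comparison with the same sign on each replicate alone, and the probe sets nearest the limits of the rule. Members named outside this rule are marked as such. Of 15165 genes in the reference table, 0 identifiers matched a probe set name. Alternatives were 2 other scalings, each replicate alone, arrays one by one with and without a replicate block, no filter, leaving out CT44 in heads in DD and ZT52 in bodies in LD, and other limits of the rule. No column of the table was left without a sample.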

Additional observations from a re-analysis of the deposited data

Results flagged for a closer look

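The difference between DD and LD was not the same in heads and bodies for 59 of the 61 members, by a direct test of the difference (limma). Of these, 37 were positive (heads minus bodies) and 22 negative, and all 16 members of 2R.6 and 2R.19 were among the negative ones. Of all probe sets tested 77.4% passed the same test. The count was 61 after the array median shift, 57 after quantile normalization, and 58 to 60 on a single replicate.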

How the results depend on the processing

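Of 329 recomputed values, 315 kept their direction and side of the threshold or lay within 1.5 times the count. Single members made up 128 of the 329, each taken only in the comparison it was named for, and none of these changed sign. These members were chosen for the same sign on each replicate alone, so no change of sign could appear in those settings. Signs of named members in other comparisons were not counted. The balance of members between heads and bodies in DD turned, with 2 higher and 59 lower as deposited, 23 higher and 12 lower with the array median shift and 36 higher and 14 lower with quantile normalization. Of all tested 32.0%, 47.7% and 46.6% were higher and 60.5%, 43.2% and 44.6% lower in the same settings. With the level limit lowered by 0.5 the rule found 102 members, and raised by 0.5 it found 12, none of them from 2R.6 and 2R.19. With an amplitude limit of 0.15 it found 44, also without those 16. With the limits unchanged, a single replicate gave 46 to 53. In heads, DD against LD called 24 members when only the 45 outside 2R.6 and 2R.19 were counted, against 39, and on a single replicate it called 32 to 36. Of all tested 73.0% were called on both replicates and 67.4% to 67.8% on a single replicate. The array median shift left 35 of 61 members called between heads and bodies in DD, against 91.0% of all tested. For the 12-h wave in heads in LD, arrays one by one called 1 member with a replicate block and 1 without it, against 0. With the replicate block the counts were 44 in heads and 61 in bodies for DD against LD, and 46 in LD and 61 in DD for heads against bodies, so the block moved no other count by over 1.5 times. Replicate numbers are not stated to mark shared pools. The deviations of same-numbered arrays correlated between time points with medians of 0.09, 0.47, 0.05 and 0.17 in heads in DD, heads in LD, bodies in DD and bodies in LD. Shared probes, the lack of gene names and the differing RNA controls limit what can be read from the members.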
